A study of Mus musculus with 2 samples.

Results

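Expression of calcium transport genes was set side by side in a segment of the mouse aorta that is prone to atherosclerosis and in one that resists it. The set was chosen by gene name alone, from the array's gene names or their current symbols, and covers the voltage-gated calcium channel subunits (Cacna, Cacnb, Cacng), the TRP channels of the A, C, M and V families, the inositol trisphosphate receptors (Itpr1 to Itpr3), the ryanodine receptor Ryr3, the calcium pumps (Atp2a2, Atp2a3, Atp2b, Atp2c), the sodium-calcium exchangers (Slc8a) and the store-operated genes Stim and Orai. It held 67 genes on 130 probes, of 28647 genes on the array, and 59 of them had a probe bright enough to be compared, of 22801 genes in all.

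Both RNA pools came from the aortas of apoE-/- mice, animals without apolipoprotein E that form atherosclerotic lesions, with 6 of them (3 males and 3 females, aged 16 weeks) in each pool. The arch pool was the prone segment (the root and arch of the aorta plus the upper 2 mm of its thoracic stretch), and the thoracic pool was the resistant segment (the 6 mm that follow). Vessels had been perfused with triton X-100 to strip the endothelium, since smooth muscle was the cell type of interest. Each of 2 two-colour arrays carried both pools, with the arch RNA in green (Cy3) on array 1 and in red (Cy5) on array 2. All animals carried the same genotype, no wild-type mice were analysed here, and each pool merged its 6 animals, so no spread between mice was measured. Both arrays measure the same RNA and count as 1 replicate: each ± is the SD between the 2 arrays (technical, n = 2 arrays), and no p-value was computed.

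In vascular smooth muscle, contraction follows a rise of cytosolic calcium. Calcium enters through voltage-gated and TRP channels, is released from the sarcoplasmic reticulum by inositol trisphosphate and ryanodine receptors, and is removed by pumps and sodium-calcium exchangers. When the store empties, the Stim sensors in its membrane open the Orai channels of the plasma membrane, and Stim1 and Orai1 levels are known to increase when smooth muscle cells leave the contractile state.

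The upstream sequences of 4 genes that the results turn on are shown because these genes of store release and store-operated entry were all higher in the arch pool. Each run is the 250 bases before the annotated RefSeq start (build GRCm38.p6), written 5′ to 3′ on the gene's strand, with GC boxes (GGGCGG or its reverse complement CCGCCC) in capitals. The regions are chr17:27057054-27057303 (plus strand) for Itpr3, chr6:146502224-146502473 (minus strand) for Itpr2, chr5:53998273-53998522 (plus strand) for Stim2 and chr7:127769565-127769814 (plus strand) for Orai3.
Itpr3: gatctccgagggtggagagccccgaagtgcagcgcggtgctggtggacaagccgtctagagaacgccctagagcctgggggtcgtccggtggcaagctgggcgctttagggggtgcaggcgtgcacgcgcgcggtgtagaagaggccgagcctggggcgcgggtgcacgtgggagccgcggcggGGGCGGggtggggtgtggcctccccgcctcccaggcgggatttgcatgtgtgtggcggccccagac
Itpr2: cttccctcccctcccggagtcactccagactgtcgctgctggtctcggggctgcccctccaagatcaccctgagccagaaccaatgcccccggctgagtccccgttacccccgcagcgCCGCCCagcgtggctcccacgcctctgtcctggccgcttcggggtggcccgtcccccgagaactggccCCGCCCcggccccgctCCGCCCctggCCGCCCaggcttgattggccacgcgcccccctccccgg
Stim2: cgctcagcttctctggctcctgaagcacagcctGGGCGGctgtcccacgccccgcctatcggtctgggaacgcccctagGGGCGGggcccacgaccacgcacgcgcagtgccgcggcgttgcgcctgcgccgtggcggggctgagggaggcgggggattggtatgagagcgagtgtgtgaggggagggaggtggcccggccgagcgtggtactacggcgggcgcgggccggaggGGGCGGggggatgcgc
Orai3: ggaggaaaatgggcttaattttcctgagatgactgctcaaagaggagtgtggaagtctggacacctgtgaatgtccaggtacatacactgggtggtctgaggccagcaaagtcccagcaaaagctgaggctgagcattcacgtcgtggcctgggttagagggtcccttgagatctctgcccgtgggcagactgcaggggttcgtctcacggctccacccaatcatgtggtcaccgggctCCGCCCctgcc

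All 4 runs held at least 1 GC box: 1 in Itpr3, 4 in Itpr2, 3 in Stim2 and 1 in Orai3. The letters TATAAA, searched on both strands, were in none of the 4, and neither was the CArG box, the motif bound by serum response factor. GGAAA, the core letters bound by NFAT factors, was found 2 times in the Orai3 run on either strand and not in the other 3. No searched motif overlapped another in these runs, and a match is only a description of the letters. GC content was 72.0% in Itpr3, 74.4% in Itpr2, 74.8% in Stim2 and 57.2% in Orai3, against a median of 52.4% over all 32851 promoter windows. The GC box was in 45.7% of 70 windows of 53 calcium transport genes and in 32.7% of all windows. TATAAA was in 7.14% of the calcium transport windows and 12.4% of all, GGAAA in 48.6% and 55.6%, and the CArG box in 1.43% and 1.47%.

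Most calcium transport genes had close to equal signal in the arch and the thoracic pool. Of the 59 compared, 52 (88.1%) differed by less than 1.2-fold in the mean, against 89.7% of all genes. Their median log2 ratio of arch over thoracic was 0.001, against -0.007 over all genes, and single genes lay between -0.19 (Cacna1h) and 0.62 (Itpr3). With an offset of 50 in the values, ratios of dim probes are pulled towards 0, so small differences of dim genes are understated.

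Itpr3 was the 1 gene of the set past the 1.5-fold limit, which asked for 1.5-fold in the mean and, on each array, 1.2-fold or more the same way. That is 1.69% of the set higher in the arch pool, where 1.4% of all genes were, and 0 of the set were higher in the thoracic pool, where 0.456% of all genes were. At a mean of 2-fold with 1.5-fold on each array, 0 of the set passed, against 0.618% of all genes in both directions together. A smaller limit, 1.2-fold on both arrays the same way, was set after the data had been seen. By it, 6 genes (10.2% of the set, against 5.0% of all genes) were higher in the arch pool: Itpr3, Itpr2, Stim2, Orai3, Slc8a1 and Cacna1g. None of the set was higher in the thoracic pool by that limit, against 2.75% of all genes. The count of 6 was 10 with no offset, 2 (Itpr3 and Orai3) with the probes of a gene summarised by their median, and 1 (Itpr3) without loess. Without loess the other genes fell under 1.2-fold on at least 1 array, but their mean log2 ratios stayed close to the main values. These means were 0.368 for Itpr2, 0.374 for Stim2, 0.321 for Orai3, 0.369 for Slc8a1 and 0.375 for Cacna1g. On array 1 alone Itpr3 (0.58) fell just short of the 1.5-fold limit.

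With no limit on size, 19 genes (32.2%) were higher in the arch pool on both arrays, near the 32.4% of all genes, and 21 (35.6%) were lower on both, near 35.2%. One of the genes higher in the arch pool, Trpm1, was compared only because its arch signals were well above background. The other 19 genes pointed in opposite directions on the 2 arrays or were at 0 on one. Applied to red over green in place of arch over thoracic, the same 2-fold, 1.5-fold and 1.2-fold limits were passed by 0 genes of the set. Of all genes, 0 passed the first 2 limits for the dyes, and 4 (higher in red) and 60 (higher in green) passed the 1.2-fold limit.

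**Figure D1:**
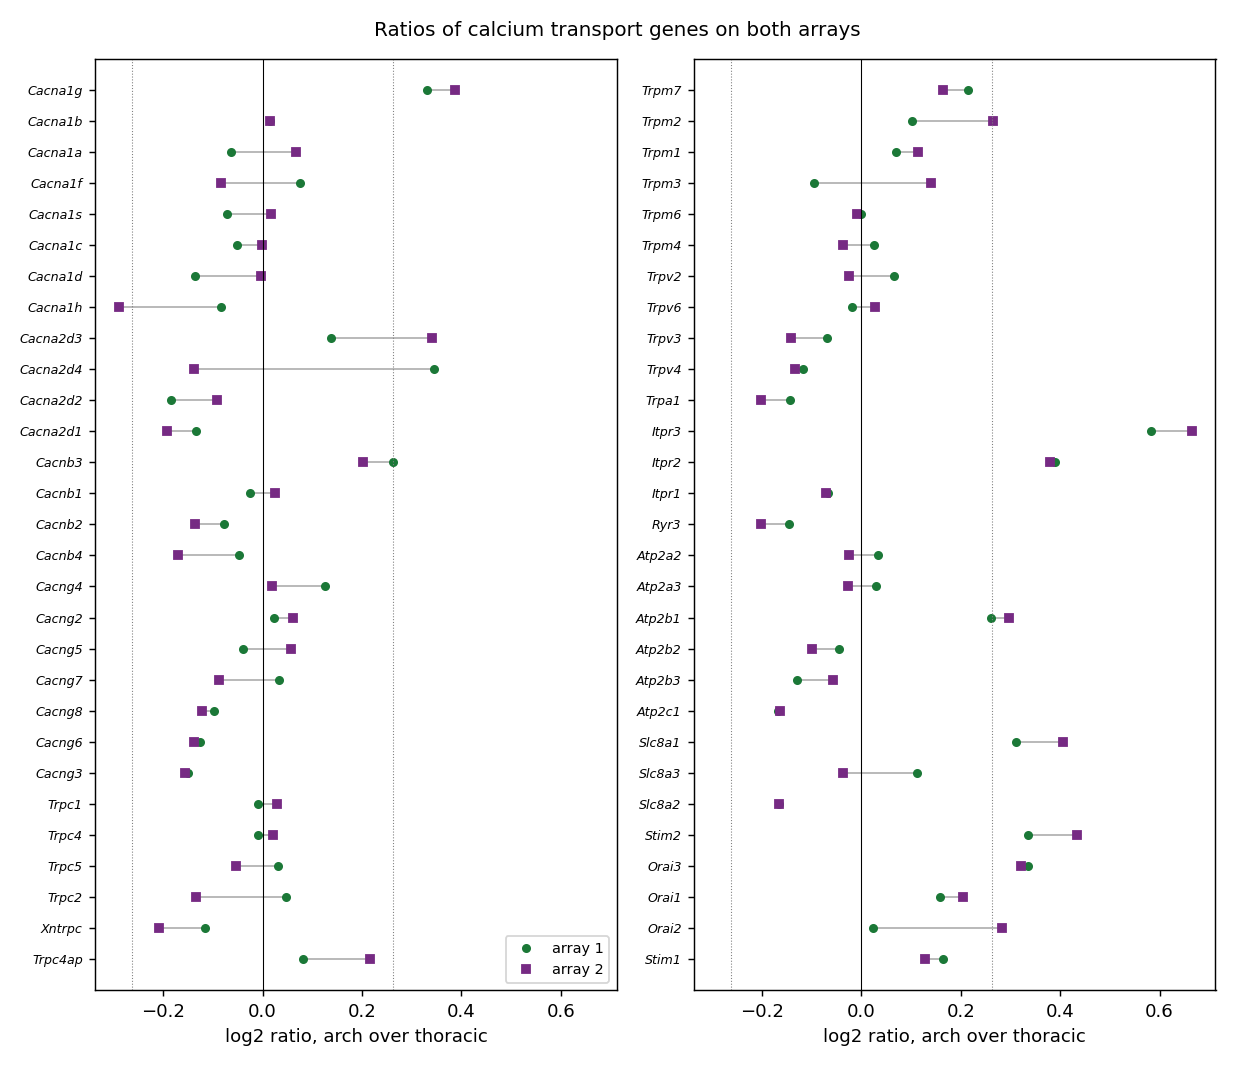
Log2 ratio of arch over thoracic (horizontal axis) for 58 of the 59 calcium transport genes compared, grouped by family, with a circle for array 1, a square for array 2 and dotted lines at 1.2-fold. Itpr3 lies farthest to the right at 0.58 and 0.67, the 5 Stim and Orai genes lie right of 0 on both arrays, and most other genes lie between the dotted lines.

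**Figure D2:**
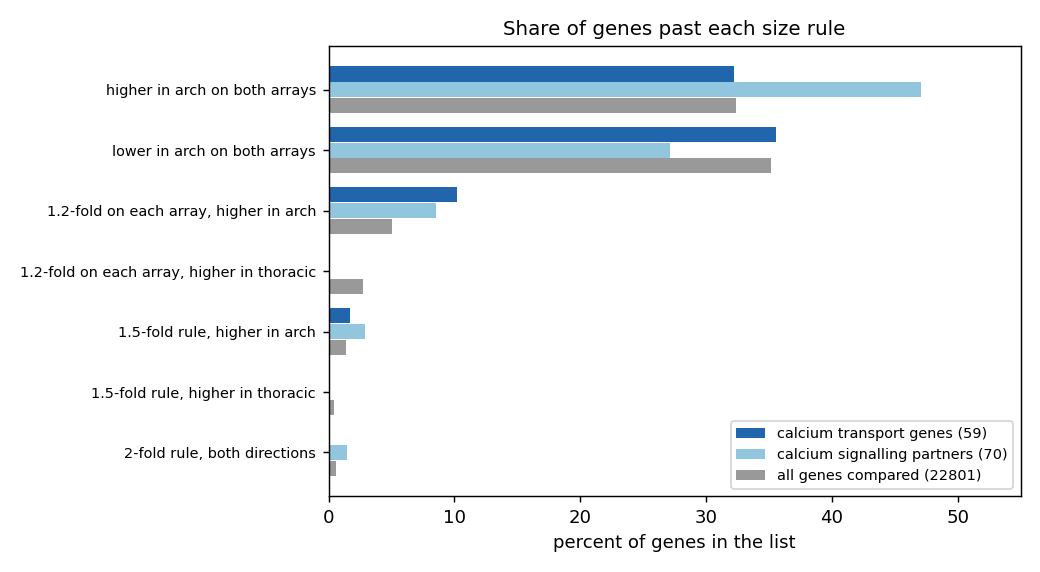
Percent of genes (horizontal axis) past each size limit for the 59 calcium transport genes, the 70 calcium signalling partners and all 22801 genes compared. The shares with the same direction on both arrays are close for the calcium transport genes and all genes (32.2% and 32.4% higher in arch), and at 1.2-fold on each array 10.2% of the set and 5.0% of all genes were higher in arch.

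The release channels of the intracellular store differed most among themselves. Itpr3, the inositol trisphosphate receptor best known from epithelial and secretory cells, had normalized signals of 642.0 and 694.1 in the arch pool on arrays 1 and 2, against 428.5 and 437.7 in the thoracic pool. Both arch values lay above both thoracic values. The log2 ratio was 0.62 ± 0.06, or 1.54-fold higher in arch, and 278 of 22801 genes (1.22%) had a mean ratio at least as high. Itpr3 was measured by 1 probe.

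Itpr2, the inositol trisphosphate receptor best known from heart and liver, had signals of 1035 and 1062 in the arch pool, against 790.3 and 816.0 in the thoracic pool. The log2 ratio of its brightest probe was 0.38 ± 0.01 (1.31-fold), with no overlap between the pools. Its 3 other probes that could be compared gave smaller values of 0.25, 0.12 and 0.00. The array names the probes at 0.38, 0.25 and 0.12 Itpr5, and they were matched to Itpr2 by synonym. The dim probe at 0.00 is the one that the array itself names Itpr2. Its signals were 80.55 and 79.76 in the arch pool, against 80.42 and 80.02 in the thoracic pool. With no offset the 3 dimmer probes gave 0.33, 0.38 and -0.001, against 0.40 for the brightest probe. The size for this gene thus depends on the probe and, for its dimmer probes, on the offset.

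Itpr1, the main receptor of this family in smooth muscle, had signals of 1864 and 1858 in the arch pool, against 1953 on both arrays in the thoracic pool. This gave a log2 ratio of -0.07 ± 0.003, and a second probe gave -0.03. The log2 ratio of Itpr3 exceeded that of Itpr1 by 0.65 on array 1 and 0.74 on array 2, and that of Itpr2 exceeded it by 0.46 and 0.45. Ryr3, a calcium release channel opened by calcium itself, had signals of 224.1 and 190.3 in the arch pool, against 247.8 and 219.2 in the thoracic pool. On the log2 scale the ratio was -0.17 ± 0.04, the lowest of these 4 genes, with 2 further probes at -0.07 and -0.04.

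All 5 Stim and Orai genes were higher in the arch pool on both arrays, with a median log2 ratio of 0.18, while 32.4% of all genes were higher on both. Stim2, the sensor that responds to small losses of store calcium, had signals of 792.1 and 736.8 in the arch pool, against 627.6 and 545.5 in the thoracic pool. The mean log2 ratio was 0.38 ± 0.07 (1.31-fold), and a dimmer probe gave 0.15 (0.41 and 0.30 with no offset). Orai3, a pore-forming subunit found in mammals, had signals of 757.8 and 716.6 in the arch pool, against 600.2 and 573.2 in the thoracic pool. Its log2 ratio was 0.33 ± 0.01 (1.26-fold) on its 1 probe.

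Stim1, the sensor that gates Orai1, had signals of 834.6 and 812.9 in the arch pool, against 744.4 and 744.5 in the thoracic pool, a log2 ratio of 0.15 ± 0.03. The gap was small but in the same direction on both arrays. Orai1, the main store-operated pore, had a log2 ratio of 0.18 ± 0.03. Orai2 had a ratio of 0.15 ± 0.18, an SD larger than its mean: it was 0.02 on array 1 and 0.28 on array 2. The median of the 5 genes was above 0 in every alternative treatment of the values, from 0.17 with no background subtraction and on array 1 alone to 0.35 in the deposited ratios.

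**Figure D3:**
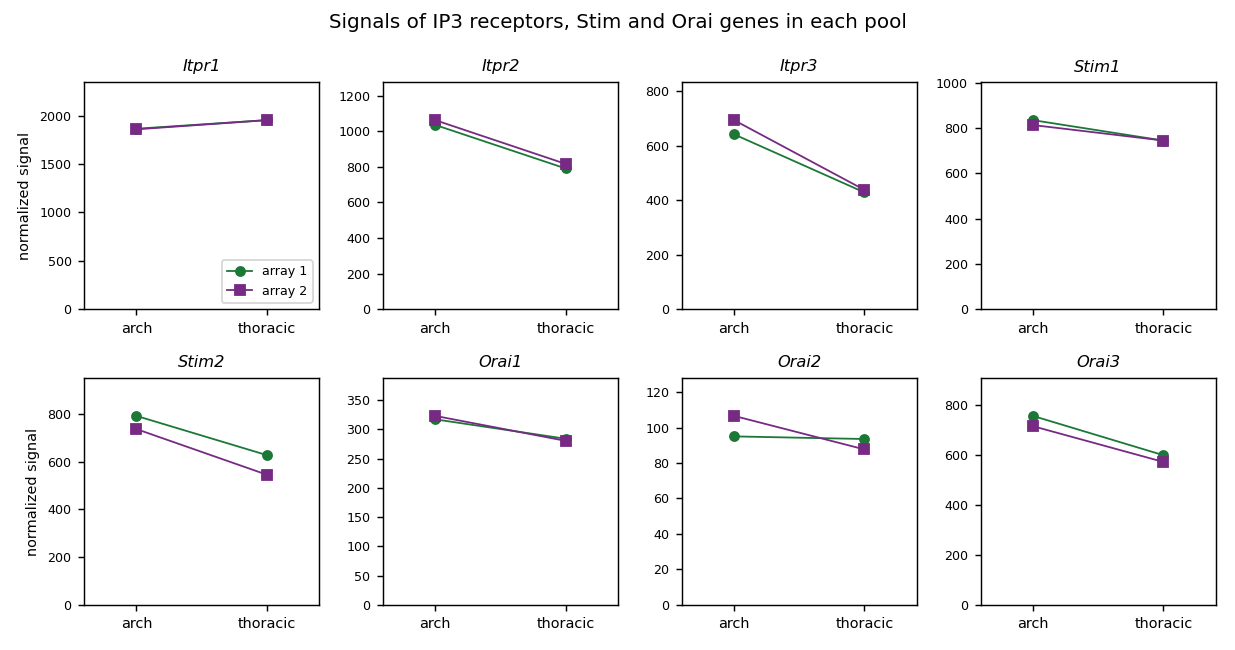
Normalized signal (vertical axis, linear and starting at 0) of the 3 inositol trisphosphate receptor genes and the 5 Stim and Orai genes, with the arch pool left, the thoracic pool right and 1 line per array. Signals are higher in the arch pool on both arrays in 7 of the 8 panels, with the largest fold for Itpr3 (1.54), and slightly lower in the arch pool for Itpr1.

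Among the pore-forming subunits of voltage-gated channels (Cacna1), 8 of 9 genes were compared, with a median log2 ratio of -0.02. Cacna1c, the L-type pore that carries most voltage-gated calcium entry in arterial smooth muscle, had signals of 171.3 and 155.3 in the arch pool, against 177.5 and 155.5 in the thoracic pool. This gave a log2 ratio of -0.03 ± 0.03, and a second probe gave -0.13. The arch and thoracic signals of Cacna1c overlapped.

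Cacna1g and Cacna1h, both T-type pores that open at low voltage, lay at opposite ends of this family. Cacna1g had signals of 182.9 and 195.6 in the arch pool, against 145.5 and 149.5 in the thoracic pool, a log2 ratio of 0.36 ± 0.04 (1.28-fold). A dimmer Cacna1g probe gave 0.04, so its difference rests on 1 of 2 probes. Cacna1h had signals of 152.8 and 155.5 in the arch pool, against 161.9 and 189.9 in the thoracic pool, a log2 ratio of -0.19 ± 0.15. The Cacna1h arrays differed in size (-0.08 and -0.29), and 2 further probes gave 0.06 and -0.04. The log2 ratio of Cacna1g exceeded that of Cacna1h by 0.41 on array 1 and 0.68 on array 2.

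Cacna1s, the L-type pore of skeletal muscle, was the brightest probe of the family. Its signals were 294.8 and 351.3 in the arch pool, against 309.5 and 347.2 in the thoracic pool, which overlap, and its log2 ratio was -0.03 ± 0.06. The other pore genes lay between -0.07 and 0.01: Cacna1a (0.002), Cacna1b (0.01), Cacna1d (-0.07, with further probes at 0.09 and 0.06) and Cacna1f (-0.004). Cacna1f was well above background on 1 of 2 arrays in the arch pool.

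The auxiliary subunits, which set the surface level and gating of the pores, showed small differences with no shared direction. Of the 4 alpha2delta genes (Cacna2d), Cacna2d3 was highest and Cacna2d1 lowest. Cacna2d3 had signals of 107.6 and 122.1 in the arch pool, against 97.78 and 96.34 in the thoracic pool, a log2 ratio of 0.24 ± 0.14. Cacna2d1, the alpha2delta form of most muscle channels and a target of gabapentin, had signals of 274.8 and 257.3 in the arch pool, against 301.5 and 294.1 in the thoracic pool. On the log2 scale the ratio was -0.16 ± 0.04, with a second probe at -0.13. Cacna2d1 was thus lower in the arch pool on both arrays by both probes.

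Cacna2d2, the brightest of these probes, had signals of 2104 and 2248 in the arch pool, against 2392 and 2396 in the thoracic pool, a log2 ratio of -0.14 ± 0.07. Its further probes gave -0.04 and 0.01. Cacna2d4 gave 0.35 on array 1 and -0.14 on array 2 and has no settled direction.

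Of the 4 beta subunits (Cacnb), Cacnb3, the beta form known from smooth muscle and neurons, was highest. It had signals of 191.9 and 200.7 in the arch pool, against 160.1 and 174.4 in the thoracic pool, a log2 ratio of 0.23 ± 0.04. Cacnb4, a brain form, was lowest by its brightest probe, with signals of 93.01 and 97.58 in the arch pool, against 96.1 and 109.8 in the thoracic pool. The mean log2 ratio was -0.11 ± 0.09, but 2 further probes pointed the other way, at 0.38 and 0.14, so the direction of Cacnb4 was not settled. Cacnb1, the skeletal muscle form and the brightest of these probes, had signals of 326.6 and 407.6 in the arch pool, against 332.5 and 400.7 in the thoracic pool. Its log2 ratio was -0.001 ± 0.04, and Cacnb2 had -0.11 ± 0.04.

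The gamma subunits (Cacng) lay between -0.15 and 0.07 in 7 of 8 genes compared. Several of them serve mainly as partners of glutamate receptors in neurons. Cacng4 was highest, with signals of 101.2 and 101.4 in the arch pool, against 92.87 and 100.1 in the thoracic pool, a log2 ratio of 0.07 ± 0.08. Cacng3 was lowest, with signals of 66.79 and 72.36 in the arch pool, against 74.09 and 80.7 in the thoracic pool, a log2 ratio of -0.15 ± 0.01. Both are small differences on dim probes. Cacng7, the brightest of these probes, had signals of 227.0 and 234.5 in the arch pool, against 221.9 and 249.2 in the thoracic pool, a ratio of -0.03 ± 0.08. Cacng6 (-0.13), Cacng8 (-0.11), Cacng2 (0.04, with further probes at -0.01 and -0.07) and Cacng5 (0.01) completed the family.

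No TRP channel gene reached 1.2-fold on both arrays in the main values, which hold the offset. With no offset, Trpm1, which was compared only through its arch signals, passed that limit for the arch pool and Trpa1 for the thoracic pool. The deposited ratios also had TRP genes past it, with Trpm2 among those for the arch pool. In the canonical family (Trpc), cation channels opened downstream of phospholipase C, 6 of 8 genes were compared, with a median log2 ratio of -0.03. Trpc1, the highest and the brightest of them, had signals of 274.8 and 217.9 in the arch pool, against 276.5 and 213.8 in the thoracic pool. This gave a log2 ratio of 0.01 ± 0.03, and its pools overlapped. The lowest was Xntrpc, the current symbol of a probe that the array's annotation calls Trpc2. It was counted among the 8 as a gene apart from Trpc2. Xntrpc had signals of 102.2 and 109.5 in the arch pool, against 110.7 and 126.4 in the thoracic pool. On the log2 scale the ratio was -0.16 ± 0.07.

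Trpc2, Trpc4 and Trpc5 had log2 ratios of -0.04, 0.005 and -0.01, each with its arrays in opposite directions. Trpc6, a receptor-operated channel of vascular smooth muscle, was well above background on 1 of 2 arrays in each pool and was not compared. Its signals were 65.31 and 67.55 in the arch pool and 61.05 and 70.41 in the thoracic pool. Trpc4ap, which encodes a protein associated with Trpc4 and is no channel, was caught by the name rule. It had signals of 3559 and 3555 in the arch pool, against 3362 and 3060 in the thoracic pool, a log2 ratio of 0.15 ± 0.09, while its 4 further probes ranged from -0.06 to 0.14.

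In the melastatin family (Trpm), 6 of 8 genes were compared, with a median log2 ratio of 0.06. Trpm7, a channel fused to a kinase that carries magnesium as well as calcium, was both the highest and the brightest. Its signals were 454.0 and 444.1 in the arch pool, against 391.3 and 396.1 in the thoracic pool, a log2 ratio of 0.19 ± 0.03, with no overlap between the pools. Trpm4, a channel opened by cytosolic calcium that passes monovalent cations, was lowest, with signals of 188.3 and 165.6 in the arch pool, against 184.9 and 170.0 in the thoracic pool. The mean log2 ratio was -0.01 ± 0.05, and a second probe gave -0.10. Trpm2, a channel that opens under oxidative stress, had 0.18 ± 0.12, and Trpm6 had -0.01 ± 0.01.

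Trpm1 was well above background in the arch pool on both arrays and not well above background in the thoracic pool on either. Trpm1 was thus compared only because of its arch signals. In the values with the offset its arch signal was higher by at least 1.07-fold, a bound close to equality. The log2 ratio was 0.09 in these values, 0.34 with no offset and 0.58 in the deposited ratios, so its size depends on the offset. Trpm3 was well above background on 1 of 2 arrays in the thoracic pool and had a log2 ratio of 0.02 ± 0.17.

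The vanilloid and ankyrin channels (Trpv, Trpa), which respond to heat, stretch and irritants, had a median log2 ratio of -0.11 over the 5 genes compared. Trpv4, a channel opened by cell swelling and warmth, had a log2 ratio of -0.13 ± 0.01, with signals of 406.3 and 394.3 in the arch pool, against 440.7 and 432.8 in the thoracic pool. Its pools did not overlap. Trpa1, an irritant sensor, was lowest, with signals of 82.98 and 77.97 in the arch pool, against 91.71 and 89.74 in the thoracic pool, a log2 ratio of -0.17 ± 0.04. Trpv2, the highest and brightest, had signals of 534.2 and 528.8 in the arch pool, against 510.7 and 538.1 in the thoracic pool, a log2 ratio of 0.02 ± 0.06. Trpv3 had -0.11 ± 0.05, with a second probe at 0.02, and Trpv6 had 0.004 ± 0.03.

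The pumps that refill the store showed no difference by their brightest probes. Atp2a2, which encodes the main reticulum pump of heart and smooth muscle, had signals of 973.9 and 966.8 in the arch pool, against 951.0 and 984.1 in the thoracic pool. Its log2 ratio was 0.004 ± 0.04, with further probes at 0.05 and 0.12. Atp2a3, a related pump of endothelium and blood cells among others, had signals of 706.5 and 703.0 in the arch pool, against 692.0 and 716.6 in the thoracic pool, a ratio of 0.001 ± 0.04. In both genes the pools overlapped. Among the pumps of the plasma membrane, Atp2b1, the most widely expressed form, had signals of 860.4 and 874.2 in the arch pool, against 718.7 and 711.5 in the thoracic pool.

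The Atp2b1 log2 ratio was 0.28 ± 0.03 (1.21-fold), just under the 1.2-fold limit on array 1. Its 3 further probes gave 0.19, 0.17 and -0.04. With no offset these 3 gave 0.43, 0.20 and -0.06, against 0.29 for the brightest probe. Atp2b3, lowest of these pumps, had signals of 75.52 and 80.09 in the arch pool, against 82.63 and 83.3 in the thoracic pool, a log2 ratio of -0.09 ± 0.05. Atp2b2 had -0.07 ± 0.04. Atp2c1, the Golgi pump for calcium and manganese, had signals of 288.4 and 298.5 in the arch pool, against 323.9 and 334.5 in the thoracic pool. This gave a log2 ratio of -0.17 ± 0.003, but its 3 further probes gave 0.10, -0.02 and -0.03, so its direction was not settled.

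The sodium-calcium exchangers differed from one another. Slc8a1, the exchanger of heart and smooth muscle, had signals of 341.5 and 351.5 in the arch pool, against 275.1 and 265.3 in the thoracic pool. The log2 ratio was 0.36 ± 0.07 (1.28-fold), and 2 further probes gave 0.13 and 0.05, in the same direction and smaller. With no offset these 2 gave 0.46 and 0.06, against 0.42 for the brightest probe. Slc8a2, a form known mainly from brain, was lower in the arch pool, with signals of 268.5 and 264.1, against 301.5 and 296.5 in the thoracic pool, a log2 ratio of -0.17 on both arrays. The log2 ratio of Slc8a1 exceeded that of Slc8a2 by 0.48 on array 1 and 0.57 on array 2. Slc8a3 had 0.04 ± 0.11, with its arrays in opposite directions.

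**Figure D4:**
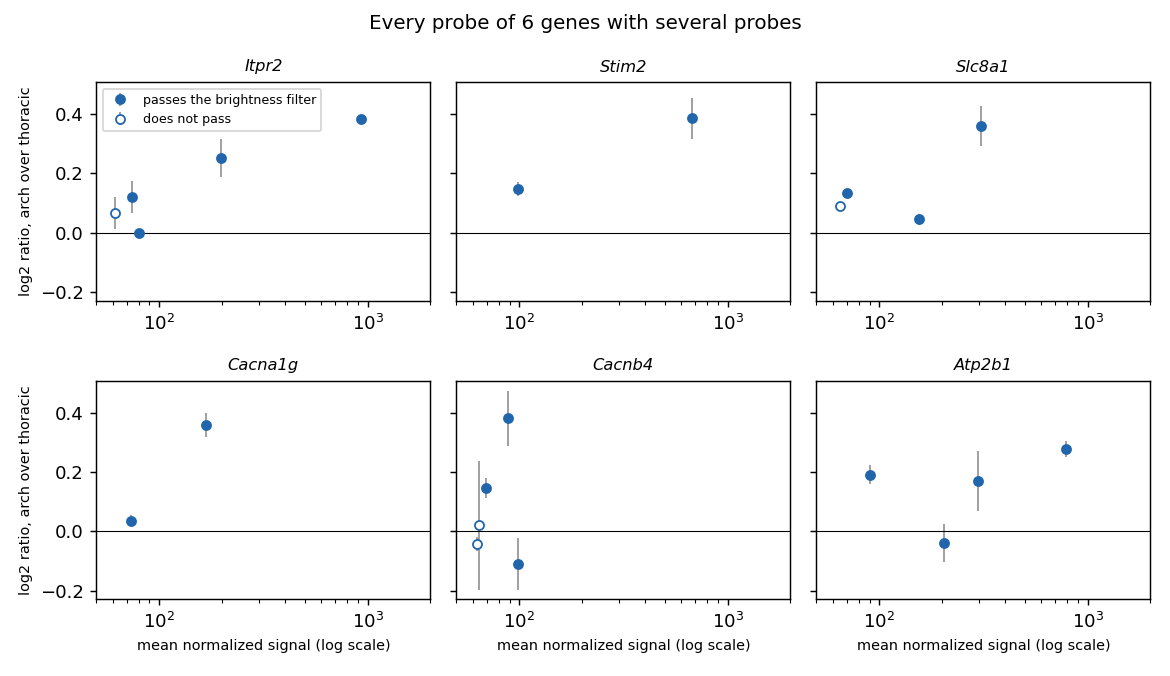
Log2 ratio of arch over thoracic (vertical axis, mean of 2 arrays with bars for the SD between arrays) against mean normalized signal (horizontal axis, log scale) for every probe of 6 genes, with filled points for probes that pass the brightness filter. The brightest probe has the highest ratio in Itpr2 (0.38), Stim2 (0.38), Slc8a1 (0.36), Cacna1g (0.36) and Atp2b1 (0.28), and the lowest in Cacnb4 (-0.11). These values hold the offset, which pulls dim probes towards 0. With no offset a dimmer probe lay above the brightest in Slc8a1 (0.46 against 0.42) and Atp2b1 (0.43 against 0.29).

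The 8 genes that could not be compared, Atp2c2, Cacna1e, Cacng1, Trpc6, Trpc7, Trpm5, Trpm8 and Trpv5, had no probe that was well above background in at least 1 pool on both arrays. Of the 59 compared, 56 were well above background in both pools on both arrays, and no probe of the set was saturated. The ratios on the 2 arrays correlated across the 59 genes with a Pearson r of 0.81 and a Spearman rho of 0.73, against 0.81 and 0.58 over all genes. These are correlations across genes, which are not independent replicates, between arrays that share both RNA pools.

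Among 72 genes that act with these channels and pumps (calmodulins, calcium-dependent kinases and phosphatases, phospholipases, store proteins), 70 could be compared, with a median log2 ratio of 0.02. By the 1.5-fold limit 2 (2.86%, against 1.4% of all genes) passed with more signal in the arch pool, Sln and Pln, and 0 passed for the thoracic pool. Sln, sarcolipin, a small inhibitor of reticulum calcium pumps, had signals of 681.4 and 743.3 in the arch pool, against 153.8 and 156.7 in the thoracic pool. On the log2 scale the ratio was 2.20 ± 0.07 (4.58-fold), while its second probe gave -0.01. Pln, phospholamban, the pump inhibitor of heart and smooth muscle, had signals of 110.4 and 114.8 in the arch pool, against 71.02 and 72.0 in the thoracic pool, a log2 ratio of 0.66 ± 0.03 (1.57-fold). Both genes are also heart muscle markers.

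At 1.2-fold on each array, 6 partners (8.57%, against 5.0% of all genes) stood higher in the arch pool, and for the thoracic pool the count was 0. Beside Sln and Pln they were the transcription factor Nfatc3, the phospholipase Plcb1, the cation channel polycystin Pkd2 and the lysosomal channel Mcoln3. Mcoln3 was compared only because its arch signals (88.8 and 89.27) were well above background. Its thoracic signals (63.04 and 63.4) were not on either array. With no limit on size, 33 partners (47.1%, against 32.4% of all genes) were higher in the arch pool on both arrays and 19 (27.1%, against 35.2%) were lower on both. The calmodulin genes Calm2 and Calm3 were the brightest: Calm2 had signals of 31250 and 31360 in the arch pool, against 32730 and 34180 in the thoracic pool, and Calm3 had 7583 and 8257 in the arch pool, against 8182 and 8554 in the thoracic pool. The log2 ratios were -0.10 ± 0.04 for Calm2 and -0.08 ± 0.04 for Calm3.

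Markers of other cell types also differed between the pools, and in bulk RNA a change in cell number and a change in RNA per cell cannot be told apart. Of 15 heart muscle markers, 6 passed the 1.5-fold limit with more signal in the arch pool and 0 passed for the thoracic pool. The 6 included Sln and Pln, the partners named above. With no limit on size, 11 of the 15 were higher in the arch pool on both arrays and 2 were lower. Summed signals were 29290 and 32160 in the arch pool, against 24040 and 22310 in the thoracic pool. Most of these sums was Actc1 (21180 and 24040 in the arch pool, against 21110 and 19110 in the thoracic pool). By the 1.5-fold limit all 8 mesothelium markers passed for the arch pool (sums of 8293 and 7788 in the arch pool, against 3129 and 3023 in the thoracic pool). Of 12 macrophage markers, 6 passed for the arch pool and 0 for the thoracic pool. Their sums, without the saturated probe of Lyz2, were 53100 and 52310 in the arch pool, against 22330 and 22830 in the thoracic pool. Most of the arch sums was Ctss (24200 and 23950) and Cd5l (10130 and 9901). Other macrophage markers were close to equal, with log2 ratios of 0.07 for Csf1r, -0.06 for Adgre1, 0.01 for Fcgr3 and 0.18 for Tyrobp. On both arrays 9 of the 12 were higher in the arch pool and 1 was lower. Of 12 endothelium markers, 4 passed for the arch pool and 0 for the thoracic pool (3284 and 3213 in the arch pool, against 2199 and 2152 in the thoracic pool). Of 12 skeletal muscle markers compared, 3 passed for the arch pool and 1 passed for the thoracic pool (sums of 1787 and 1782 in the arch pool, against 1714 and 1672 in the thoracic pool). Of 10 fat markers, 2 passed for the arch pool and 0 for the thoracic pool (sums, without the saturated probe of Fabp4, of 40550 and 38030 in the arch pool, against 38110 and 39140 in the thoracic pool). These near-equal sums hide a split, with 5 of the 10 higher in the arch pool on both arrays and 3 lower. Ucp1, Cidea, Cox8b and Dio2 had log2 ratios of 0.532, 0.545, 0.608 and 1.116. Adipoq, Cfd and Retn had -0.161, -0.349 and -0.467. Of 13 neuron and Schwann cell markers 0 passed in either direction (7299 and 7075 in the arch pool, against 6194 and 6217 in the thoracic pool).

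Every marker compared was well above background on at least 1 array in both pools. Of 16 contractile smooth muscle markers, 0 passed the 1.5-fold limit, with a median log2 ratio of 0.13. The probes of 3 of these, Acta2, Tagln and Myl9, were saturated, and the sums of the others were 120100 and 121700 in the arch pool, against 122200 and 121400 in the thoracic pool. Most of these sums was Cnn1 and Itga8, which went opposite ways. Cnn1 had 39360 and 39980 in the arch pool, against 37450 and 35730 in the thoracic pool. Itga8 had 30580 and 33500, against 41060 and 41460. Of the 16 markers, 7 were higher in the arch pool on both arrays and 3 were lower. The part of any of these cell types in the higher arch signals of Itpr3, Itpr2, Stim2, Orai3, Slc8a1 and Cacna1g was not tested.

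The arrays carried 41534 gene spots each, of which 76.5% to 82.6% were well above background in a pool, and median signals of 132.4 to 142.2 stood against negative control means of 77.0 to 97.1. Precision is limited by the number of arrays and, for dim probes, by signals close to background.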

How the data were processed

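RNA of 2 pools was measured on 2 two-colour Agilent arrays with the dyes exchanged. The deposited scanner tables hold intensity values per spot (mean signal and local background median), not normalized. Feature Extraction wrote them: version 8.1.1.1 according to the headers, and 9.1.1.1 in the submitters' processing notes. The deposited ratio column, used in 1 alternative, is on a log10 scale (red against green) per the file headers.

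With limma 3.58.1 in R 4.3.3, the background was corrected by normexp (offset 50), loess was run within arrays, giving control spots no weight, and control and outlier spots were then removed. After averaging the spots of a probe, the sign of array 1 was reversed so that both read arch over thoracic, and the arrays' mean was taken. Signals per pool were taken after Aquantile scaling between arrays. A gene was represented by its brightest probe that was well above background in at least 1 pool on both arrays, by the scanner's flags (32176 of 41161 probes). Where the weaker pool was below that limit on both arrays, the fold is a bound, taken against the probe's own signal or the dimmest detected signal, whichever was higher.

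Names came from the files and, by accession or synonym, from a RefSeq table of assembly GRCm38.p6. Of the 130 probes of the set, 112 matched by the files' gene name and 18 by the current symbol alone. Named with values are the genes past a limit and, per family, the highest, the lowest and the one with the brightest probe, plus the partners past the 1.5-fold limit and the brightest 2. The members and lists were chosen with earlier results of these data known, and the 1.2-fold and same-direction counts were added after seeing the data. The values of 1 gene of the set are not reported here, while counts and medians include it. The steps were tested on simulated arrays. The alternatives were no offset, no background subtraction, no loess, the deposited ratio, no brightness filter, the median over probes, saturated probes left out, and each array alone.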

Additional observations from a re-analysis of the deposited data

How the results depend on the processing

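Itpr3 passed the 1.5-fold limit in 8 of the 9 alternatives, and its log2 ratio lay between 0.58 and 0.69 over all 9. Its only probe was bright and not saturated. No brightness filter, the median over probes and leaving out saturated probes therefore could not change its value of 0.624. On array 1 alone (without array 2) the count of calcium transport genes past that limit was 0, since the ratio of 0.583 lay just under it. No gene of the set passed it for the thoracic pool, or the 2-fold limit in either direction, under any of the 9. The median log2 ratio of the set was -0.007 with no offset, -0.013 in the deposited ratios and -0.010 on array 2 alone, against 0.001 in the values reported. That of the 70 partners was 0.034 in the deposited ratios, 0.031 with the median over probes, 0.040 on array 2 alone and 0.032 on array 1 alone, against 0.022. The count at 1.2-fold on each array higher in arch was 10 with no offset, 9 in the deposited ratios, 1 without loess, 2 with the median over probes, 10 on array 2 alone and 7 on array 1 alone. For the thoracic pool it was 3 with no offset (Cacng3, Cacng6, Trpa1), 2 in the deposited ratios and 1 on array 2 alone (Cacna1h). Of the 59 single ratios, 35 moved by more than the SD between arrays in the deposited values, 28 with no offset, 15 with the median over probes, 11 with no background subtraction and 7 without loess. That SD was small (median 0.042 over the 59 genes), so small shifts count as moves. The cause was not tested. No paired analysis was possible because there is 1 pool per segment. With 1 pool per segment nothing here measures the spread between mice, and dim probes close to the negative controls limit what can be seen.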

Other observations

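Within several genes the probes did not give the same ratio. In Cacnb4, the probe with the second highest signal gave a log2 ratio of 0.38 ± 0.09 (0.32 and 0.45 on arrays 1 and 2), with signals of 95.18 and 105.0 in the arch pool, against 76.46 and 77.04 in the thoracic pool. In the deposited ratios that Cacnb4 probe was at 1.01 and the brightest one at -0.22. In Itpr2, the 4 probes that could be compared ranged from 0.00 to 0.38. A probe of the Trpc2 gene gave 0.27 on array 1 and -0.35 on array 2, opposite directions on arrays of the same RNA. Of the 59 calcium transport genes compared, 22 had more than 1 probe that passed the brightness filter.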
